A study of Mus musculus with 6 samples.

Results

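The genes described here are 33 markers of Kupffer cells and other macrophages, taken by symbol from the 24034 genes of a mouse liver RNA-seq table. They were sorted by role into 5 markers of resident Kupffer cells (Clec4f, Vsig4, Cd5l, Timd4 and Marco), 4 genes of MHC class II antigen presentation (Cd74, H2-Aa, H2-Ab1 and H2-Eb1) and 24 other macrophage and leukocyte genes. All 33 had a row in the table, and 29 reached a mean of 0.5 FPKM over the 6 libraries, the level required for the test. FPKM corrects the fragments of a gene for transcript length and library size, so levels of different genes can be set side by side.

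The livers came from C57BL/6 mice at 25 weeks of age, and no treatment is given. The 3 wild type libraries (WT) carry the genotype label lncenc1wt/wt, and the 3 HO libraries carry lncenc13A/3A, with 1 altered allele of Lncenc1, a long non-coding RNA gene, in the homozygous state. The series' design text calls the mutants knockout mice, while the sources used here do not give what the allele changes in the gene, or in which cells. Lncenc1 itself was not analysed here, so the genotype was not checked in the data. The labels do not state that each library is a different animal, and p-values measure the spread between these libraries, which may be technical.

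Kupffer cells are the macrophages that live in the liver sinusoids. They are seeded before birth, renew themselves in place, clear bacteria, aged red blood cells and debris from portal blood, and carry scavenger and complement receptors. Their identity rests on the lineage factor PU.1 and on liver X receptor alpha, and when they are lost, monocytes from blood can fill the niche and slowly take on the same markers. MHC class II molecules present peptides to CD4+ T cells and are made by macrophages, dendritic cells and B cells, so in whole liver they do not stand for Kupffer cells alone.

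None of the 29 measured genes passed the test between HO and WT livers (limma on log2(FPKM + 0.5), Benjamini-Hochberg adjustment over 13250 genes at 0.05), against 1.14% of all genes tested. The smallest adjusted p was 0.182, for Vsig4. Of the 29, 25 had a lower fitted mean in HO and 4 a higher one (Spic, Mpeg1, Cd14 and Slc11a1), with a median log2 difference of -0.21. With median-of-ratios scaling or quantile normalization 23 were lower, since Lyz2 and Fcgr1 changed sign. Over all genes tested the median was also below 0, at -0.09, and 64.6% of genes had a lower mean in HO. Against that median 23 of the 29 lay lower. With median-of-ratios scaling the median of all genes moved to 0.01 and that of the 29 genes to -0.10, and again 23 of them lay below the median of all genes.

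The groups did not overlap for 3 of the 29 genes, or 10.3%: Vsig4, Cd68 and Cybb, each lower in HO. Over all genes tested 27.9% had groups that did not overlap, and 21.4% had groups that did not overlap with HO the lower. An unadjusted p under 0.05 was found for 2 of the 29 (Vsig4 and Cd68), or 6.90%, and for 21.5% of all genes. Both shares lay under those of all genes. RNA from whole liver cannot tell fewer cells of a type from less RNA per cell, and this holds for every difference given here.

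**Figure D1:**
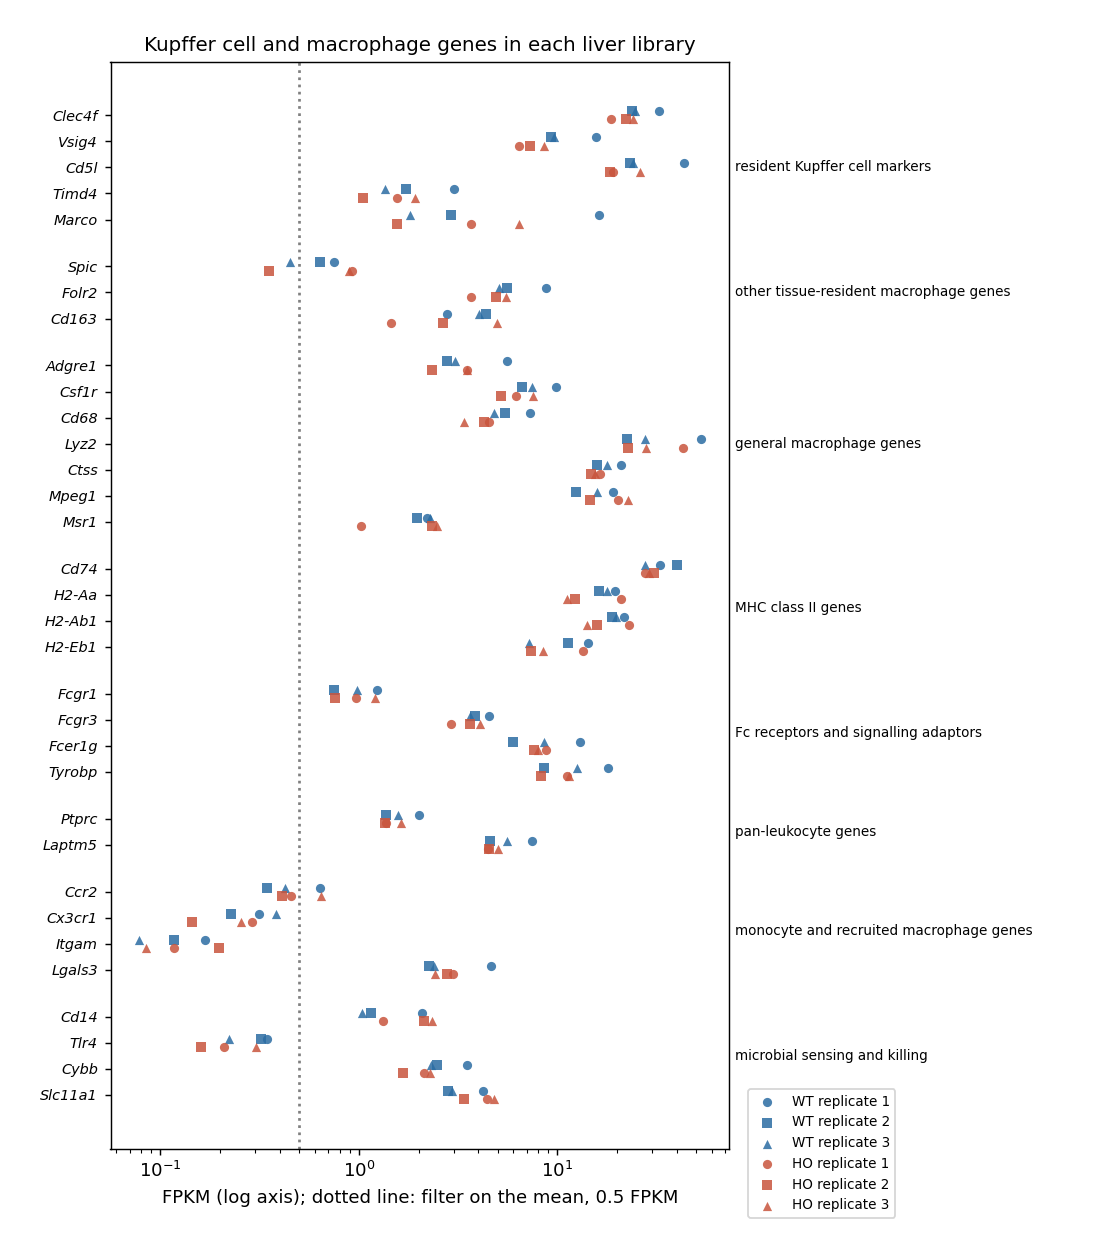
FPKM of the 33 genes in each library on a log axis, grouped by role, with WT in blue, HO in red, the symbol shape giving the replicate number and a dotted line at the filter of 0.5 FPKM on the mean. WT replicate 1 (blue circle) is the rightmost WT point for 26 of the 29 measured genes, and Ccr2, Cx3cr1, Itgam and Tlr4 have means left of the line.

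The 5 resident Kupffer cell markers were detected in every library, as the labelled tissue, liver, requires. All 5 had a lower fitted mean in HO, with a median log2 difference of -0.38, and none passed. Clec4f, a C-type lectin found in the mouse on Kupffer cells and used as their defining marker, was at 32.6, 23.6 and 24.5 FPKM in WT replicates 1 to 3 and at 18.7, 22.2 and 23.9 FPKM in HO replicates 1 to 3. Only WT replicate 1 stood clear of the rest, and the highest HO library lay between the other 2 WT libraries. This gave a log2 difference of -0.30 ± 0.15 (SE), with a 95% interval of -0.66 to 0.06 (limma adjusted p = 0.301). On the linear scale that interval runs from 0.633 to 1.04 times the WT level.

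Vsig4, the complement receptor with which Kupffer cells catch opsonised bacteria from flowing blood, was at 15.7, 9.30 and 9.62 FPKM in WT and at 6.39, 7.26 and 8.57 FPKM in HO. Every HO library lay under every WT library, by the narrowest margin between HO replicate 3 and WT replicate 2. The log2 difference was -0.58 ± 0.21, with an interval of -1.08 to -0.07, and limma's unadjusted p of 0.0298 became 0.182 after adjustment. Without WT replicate 1 it was -0.34 ± 0.15 (limma adjusted p = 0.359, and from 0.172 to 0.572 over all settings).

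Cd5l, a secreted scavenger-like protein of tissue macrophages that acts on lipid metabolism and cell survival, was at 43.4, 23.1 and 23.9 FPKM in WT and at 19.0, 18.4 and 26.2 FPKM in HO. The groups overlapped, since HO replicate 3 exceeded 2 of the 3 WT libraries. HO minus WT came to -0.45 ± 0.26 in log2 units (limma adjusted p = 0.360) and to -0.16 without WT replicate 1. Timd4, a phosphatidylserine receptor for engulfing dying cells and a marker of long-resident Kupffer cells, was at 3.01, 1.72 and 1.35 FPKM in WT and at 1.56, 1.05 and 1.92 FPKM in HO. HO replicates 1 and 3 both exceeded WT replicate 3, and the log2 difference was -0.30 ± 0.27 (limma adjusted p = 0.564).

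Marco, a class A scavenger receptor for bacteria and particles, varied most of the 5. It was at 16.2, 2.93 and 1.80 FPKM in WT and at 3.68, 1.56 and 6.40 FPKM in HO. The highest and lowest of the 6 libraries differed 10.4-fold, and those of WT alone 8.996-fold. Its log2 difference of -0.38 ± 0.76 had an interval of -2.18 to 1.41 (limma adjusted p = 0.810). Without WT replicate 1 the sign turned and the difference was 0.47.

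In all 5 resident markers the highest of the 6 libraries was WT replicate 1, and the highest HO library was HO replicate 3. On the log2 scale WT replicate 1 exceeded the mean of the other 2 WT libraries by a median of 0.79, and HO replicate 3 exceeded the other HO libraries by a median of 0.44. Summed over the 5 genes, the level was 110.9, 60.7 and 61.2 FPKM in WT and 49.3, 50.5 and 67.0 FPKM in HO. HO replicate 3 thus lay above WT replicates 2 and 3, and the summed level of the groups overlapped.

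In mm10 Clec4f lies at chr6:83644542-83656187 and Marco at chr1:120474538-120505024, both on the minus strand, Vsig4 at chrX:96247203-96293438 on the minus strand, Cd5l at chr3:87357881-87371073 on the plus strand and Timd4 at chr11:46810800-46844332 on the plus strand. They lie on 5 chromosomes and shared the highest library of each group, for a reason that was not tested. The 250 bases before the start are shown for 3 of them (RefSeq, GRCm38.p6, the strand of the gene). These 3 were chosen because they hold the letters in capitals. The capitals mark GAGGAA, a core to which PU.1 binds, or its reverse complement TTCCTC. The Vsig4 window is chrX:96293439-96293688 (minus strand), that of Cd5l chr3:87357631-87357880 (plus strand) and that of Marco chr1:120505025-120505274 (minus strand).
Vsig4: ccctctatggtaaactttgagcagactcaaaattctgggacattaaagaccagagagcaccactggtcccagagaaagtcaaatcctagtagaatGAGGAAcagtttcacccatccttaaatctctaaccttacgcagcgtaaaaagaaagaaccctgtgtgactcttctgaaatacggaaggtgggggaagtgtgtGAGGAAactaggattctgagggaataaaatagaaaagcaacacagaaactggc
Cd5l: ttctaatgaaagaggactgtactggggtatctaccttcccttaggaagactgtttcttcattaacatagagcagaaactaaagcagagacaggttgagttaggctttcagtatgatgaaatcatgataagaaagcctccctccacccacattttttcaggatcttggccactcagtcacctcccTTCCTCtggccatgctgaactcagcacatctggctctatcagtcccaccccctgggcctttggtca
Marco: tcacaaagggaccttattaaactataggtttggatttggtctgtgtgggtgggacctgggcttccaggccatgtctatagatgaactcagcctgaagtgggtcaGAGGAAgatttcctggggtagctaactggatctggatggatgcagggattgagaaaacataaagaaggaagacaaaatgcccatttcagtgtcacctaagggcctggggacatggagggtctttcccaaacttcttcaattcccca
In Vsig4 the letters stand 155 to 150 and 53 to 48 bases before the start, in Cd5l 66 to 61 bases before it on the opposite strand, and in Marco 146 to 141 bases before it. RefSeq promoters were matched for 25 of the 33 genes, and 11 of these 25 held the 6 letters on either strand: the 3 shown and Cd68, Ctss, Fcgr1, Fcgr3, Itgam, Laptm5, Ptprc and Slc11a1. Of all 32851 promoters of the same length 23.3% held them. That share is per promoter, while the 11 of 25 is a count of genes, which had 28 promoters between them. A match describes the letters and not a site in use, and it was not tied to the level of any gene. Clec4f and Timd4 were searched too and did not hold these letters in the window.

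Of 3 further genes of tissue-resident macrophages, 2 had a lower fitted mean in HO and none passed. Folr2, a folate receptor of resident macrophages, was at 8.76, 5.55 and 5.06 FPKM in WT and at 3.65, 4.92 and 5.49 FPKM in HO. WT replicate 1 was again the highest, HO replicate 3 exceeded WT replicate 3, and the log2 difference was -0.40 ± 0.23 (limma adjusted p = 0.354). Gm10602 overlaps exons of Folr2 on the opposite strand, and the sources used here do not say if counting used strand.

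Cd163, the receptor that takes up haptoglobin-bound haemoglobin, did not follow the resident markers. It was at 2.79, 4.37 and 4.05 FPKM in WT, where replicate 1 was the lowest, and at 1.45, 2.64 and 4.94 FPKM in HO, where replicate 3 was the highest of all 6 libraries. HO minus WT came to -0.38 ± 0.36 on the log2 scale (limma adjusted p = 0.588). Spic, a transcription factor of iron-recycling macrophages, lay close to the filter, at 0.612 ± 0.150 FPKM in WT and 0.724 ± 0.323 FPKM in HO (SD, n = 3 each), and the groups overlapped. Its log2 difference was 0.11.

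Of the 7 general macrophage genes, 6 had a lower fitted mean in HO (5 of 7 with median-of-ratios scaling or quantile normalization, Lyz2 being the one that differed) and 1 a higher one, and none passed. Cd68, a lysosomal glycoprotein of phagocytes, was at 7.29, 5.45 and 4.81 FPKM in WT and at 4.54, 4.28 and 3.38 FPKM in HO. The groups did not overlap, with HO replicate 1 just under WT replicate 3. Its log2 difference was -0.47 ± 0.18, with an interval of -0.88 to -0.05, and limma's unadjusted p of 0.0337 became 0.194 after adjustment. Without WT replicate 1 the difference was -0.31 ± 0.16 (limma adjusted p = 0.431, and from 0.0930 to 0.662 over all settings). Ctss, the cysteine protease that trims the invariant chain in class II loading, was at 20.9, 15.8 and 17.7 FPKM in WT and at 16.3, 14.8 and 15.5 FPKM in HO. HO replicate 1 exceeded WT replicate 2, so the groups overlapped, and the log2 difference was -0.21 ± 0.12 (limma adjusted p = 0.360).

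Csf1r, the receptor for the growth factors on which macrophages depend, averaged 7.95 ± 1.64 FPKM in WT and 6.31 ± 1.20 FPKM in HO (SD, n = 3 each), a log2 difference of -0.31. Its exons overlap those of Hmgxb3 on the opposite strand. Adgre1, which encodes the F4/80 antigen, averaged 3.80 ± 1.54 FPKM in WT and 3.12 ± 0.667 FPKM in HO, a log2 difference of -0.21. For both genes WT replicate 1 held the highest of the 6 values and the remaining WT values lay among those of HO.

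Lyz2, lysozyme M, had the highest mean of the 33 genes. It was at 53.0, 22.3 and 27.6 FPKM in WT and at 42.9, 22.6 and 27.9 FPKM in HO, so replicate 1 stood above the other 2 in each group. HO minus WT came to -0.09 ± 0.35 on the log2 scale. Reads of Lyz2 may be shared with its near-identical neighbour Lyz1, which makes the level uncertain. Msr1, the other class A scavenger receptor, averaged 2.16 ± 0.170 FPKM in WT and 1.95 ± 0.802 FPKM in HO, with HO replicate 1 the lowest of all at 1.03 FPKM.

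Mpeg1, a pore-forming protein of the phagosome, was the general macrophage gene with a higher mean in HO. It was at 19.1, 12.3 and 15.8 FPKM in WT and at 20.1, 14.7 and 22.7 FPKM in HO. HO replicates 1 and 3 exceeded every WT library and HO replicate 2 lay under 2 of them. HO minus WT came to 0.27 ± 0.21 on the log2 scale (limma adjusted p = 0.480).

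**Figure D2:**
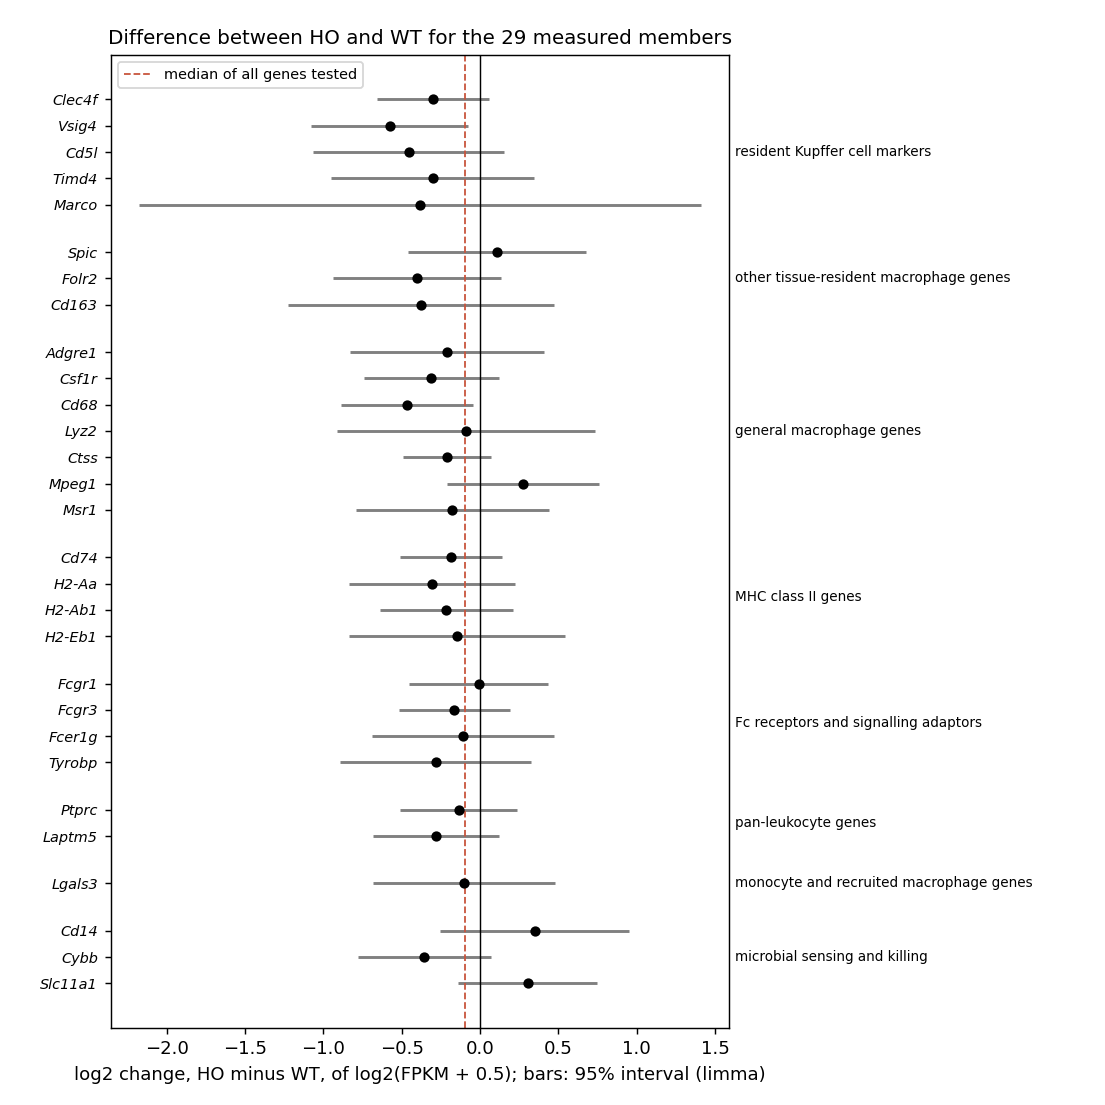
Log2 difference between HO and WT (points) with the 95% interval from limma (bars) for the 29 measured genes, the solid line at 0 and the dashed line at the median of all genes tested, -0.09. The intervals of Vsig4 and Cd68 lie wholly under 0 before adjustment, and that of Marco, from -2.18 to 1.41, is the widest of the 29.

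The 4 MHC class II genes each had a lower fitted mean in HO, under either scaling too, with a median log2 difference of -0.20, and none passed. Cd74, the invariant chain that guides class II molecules to the endosome, was at 32.96, 39.9 and 27.5 FPKM in WT and at 27.7, 30.6 and 28.99 FPKM in HO. The HO values lay within the range of WT. The log2 difference was -0.18 ± 0.14 (limma adjusted p = 0.485). An annotated microRNA gene, Mir5107, overlaps its exons on the same strand.

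H2-Aa, the alpha chain of I-A, was at 19.5, 16.3 and 17.7 FPKM in WT and at 20.95, 12.3 and 11.2 FPKM in HO. The WT libraries lay close together, HO replicate 1 was the highest of all 6 and HO replicates 2 and 3 were the lowest. The log2 difference was -0.31 ± 0.22 (limma adjusted p = 0.471). H2-Ab1, the beta chain of I-A, had the same order in HO, at 21.7, 18.7 and 19.8 FPKM in WT and at 23.0, 15.8 and 14.0 FPKM in HO, with a log2 difference of -0.21 ± 0.18 (limma adjusted p = 0.534). H2-Eb1, the beta chain of I-E, was at 14.3, 11.3 and 7.15 FPKM in WT and at 13.5, 7.36 and 8.47 FPKM in HO. Its groups overlapped over most of their range, with a log2 difference of -0.15 ± 0.29 (limma adjusted p = 0.812).

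Within HO the class II genes thus followed another library order than the resident markers. Within WT, replicate 1 was the highest in 3 of the 4 class II genes and in all 5 resident markers. HO replicate 1 was the highest HO library in 3 of the 4, by a median over those 3 genes of 0.74 on the log2 scale over the mean of the other 2 HO libraries. Cd74 was the exception. HO replicate 1 was the highest HO library in none of the 5 resident markers. Of the 15 further Kupffer cell genes read below, HO replicate 1 was the highest HO library in 8 and HO replicate 3 in 5. Of 6 measured genes that accompany class II presentation, HO replicate 1 was the lowest HO library in 4. The 3 class II genes without Cd74 summed to 55.4, 46.3 and 44.7 FPKM in WT and to 57.5, 35.5 and 33.7 FPKM in HO. Without HO replicate 1 the difference was -0.58 ± 0.11 for H2-Aa (limma adjusted p = 0.0683) and -0.42 ± 0.11 for H2-Ab1 (limma adjusted p = 0.101, and up to 0.945 over all settings), and the median of the 4 genes was -0.40. That adjusted p for H2-Aa was the smallest of any of the 29 genes under any setting tried, and over the settings it ranged up to 0.873.

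The 3 chains lie side by side on chromosome 17 of mm10, H2-Ab1 at chr17:34257689-34269419 and H2-Eb1 at chr17:34305867-34316674 on the plus strand and H2-Aa at chr17:34282744-34287823 on the minus strand. Class II promoters share a Y box, CTGATTGG or its reverse complement CCAATCAG, the letters bound by NF-Y. The 250 bases before the start are shown for H2-Aa and H2-Eb1, with the Y box in capitals (RefSeq, GRCm38.p6, the strand of the gene). The H2-Aa window is chr17:34287824-34288073 (minus strand) and that of H2-Eb1 chr17:34305617-34305866 (plus strand).
H2-Aa: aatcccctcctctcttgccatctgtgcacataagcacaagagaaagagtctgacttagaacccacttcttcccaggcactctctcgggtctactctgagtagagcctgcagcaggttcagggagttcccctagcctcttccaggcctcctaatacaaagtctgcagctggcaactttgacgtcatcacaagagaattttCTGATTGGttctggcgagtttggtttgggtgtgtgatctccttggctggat
H2-Eb1: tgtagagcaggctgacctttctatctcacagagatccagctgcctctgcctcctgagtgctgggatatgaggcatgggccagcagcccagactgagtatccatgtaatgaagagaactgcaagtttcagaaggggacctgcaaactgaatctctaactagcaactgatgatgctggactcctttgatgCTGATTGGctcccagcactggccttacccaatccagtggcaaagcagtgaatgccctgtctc
The Y box stands 51 to 44 bases before the start in H2-Aa and 62 to 55 bases before it in H2-Eb1. H2-Ab1 and Cd74 were not among the 25 genes with a matched promoter and were not searched. Of the 25 genes, with 28 promoters, these 2 class II chains held it, and of all 32851 promoters, counted singly, 3.83% did. Ciita, the factor that switches class II genes on, is not among the 33 genes and averaged 0.201 ± 0.0333 FPKM in WT and 0.192 ± 0.0522 FPKM in HO, under the filter.

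All 4 Fc receptor and adaptor genes had a lower fitted mean in HO (3 of 4 with median-of-ratios scaling or quantile normalization, Fcgr1 changing sign) and none passed. Tyrobp, the adaptor DAP12 that carries signals of many myeloid receptors, was at 18.1, 8.58 and 12.5 FPKM in WT and at 11.1, 8.29 and 11.4 FPKM in HO. WT replicate 1 was far above the rest and the other values interleaved, with a log2 difference of -0.28 ± 0.26 (limma adjusted p = 0.568). Fcgr3, a low-affinity IgG receptor, was at 4.54, 3.85 and 3.63 FPKM in WT and at 2.90, 3.65 and 4.07 FPKM in HO. HO replicate 3 exceeded 2 WT libraries, and the log2 difference was -0.16 ± 0.15 (limma adjusted p = 0.572). Fcer1g, the gamma chain that Fc receptors share, averaged 9.19 ± 3.52 FPKM in WT and 8.10 ± 0.606 FPKM in HO, and Fcgr1, the high-affinity IgG receptor, 0.990 ± 0.243 and 0.979 ± 0.223 FPKM (SD, n = 3 each). In all 4 genes WT replicate 1 held the highest of the 6 values.

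The 2 pan-leukocyte genes were likewise highest in WT replicate 1, and neither passed. Laptm5, a lysosomal protein of blood cells, was at 7.42, 4.59 and 5.59 FPKM in WT and at 4.46, 4.51 and 5.02 FPKM in HO. Only HO replicate 3 reached into the WT range, and the log2 difference was -0.28 ± 0.17 (limma adjusted p = 0.389). Ptprc, which encodes CD45, was at 2.02, 1.36 and 1.57 FPKM in WT and at 1.37, 1.35 and 1.63 FPKM in HO. The values other than WT replicate 1 interleaved, with a log2 difference of -0.13 ± 0.16 (limma adjusted p = 0.666).

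Of 4 genes of monocytes and newly recruited macrophages, 3 (Ccr2, Cx3cr1 and Itgam) averaged under the filter. Ccr2, the chemokine receptor that brings monocytes out of the marrow, averaged 0.470 ± 0.154 FPKM in WT and 0.505 ± 0.124 FPKM in HO (SD, n = 3 each). Cx3cr1, the fractalkine receptor, averaged 0.308 ± 0.0789 and 0.230 ± 0.0763 FPKM, and Itgam, the integrin chain CD11b, 0.121 ± 0.0450 and 0.133 ± 0.0575 FPKM. These 3 were under the filter and have no tested difference, and in each the groups overlapped. Without a filter their log2 differences were 0.06, -0.15 and 0.03, and none passed (limma adjusted p = 0.899, 0.621 and 0.918). A gene with 2000 exonic bases is measured with few reads near the filter, since 0.5 FPKM would correspond to 19.1 to 24.6 read equivalents. Ccr2, Cx3cr1 and Itgam have 6760, 4505 and 5024 exonic bases, so a given FPKM stands for more read equivalents in them. Annotated genes overlap exons of Cx3cr1 on the opposite strand and of Itgam on the same strand.

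Lgals3, galectin-3, a lectin abundant in recruited and lipid-laden macrophages, was the measured gene of that group. It was at 4.64, 2.27 and 2.39 FPKM in WT and at 2.98, 2.77 and 2.41 FPKM in HO. All 3 HO libraries lay above WT replicates 2 and 3 and under WT replicate 1. The log2 difference was -0.10 ± 0.25 (limma adjusted p = 0.844), and 0.18 without WT replicate 1.

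Of the 4 genes of microbial sensing and killing, 3 were measured and none passed. Cybb, the catalytic subunit of the phagocyte oxidase, was at 3.50, 2.47 and 2.31 FPKM in WT and at 2.13, 1.67 and 2.29 FPKM in HO. The groups did not overlap, but WT replicate 3 and HO replicate 3 were nearly equal, and the log2 difference was -0.35 ± 0.18 (limma adjusted p = 0.305). Slc11a1, the phagosomal metal transporter Nramp1, was at 4.24, 2.82 and 2.93 FPKM in WT and at 4.44, 3.38 and 4.81 FPKM in HO. HO replicates 1 and 3 exceeded every WT library, and the log2 difference was 0.31 ± 0.19 (limma adjusted p = 0.393). Without WT replicate 1 it was 0.47 ± 0.17 (limma adjusted p = 0.307, and from 0.285 to 0.672 over all settings).

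Cd14, the coreceptor that hands lipopolysaccharide to Tlr4, was at 2.07, 1.16 and 1.03 FPKM in WT and at 1.32, 2.14 and 2.32 FPKM in HO. It was higher in HO replicates 2 and 3 than in any WT library, while HO replicate 1 lay among WT. HO minus WT came to 0.35 ± 0.26 on the log2 scale (limma adjusted p = 0.469), and 0.58 ± 0.23 without WT replicate 1 (limma adjusted p = 0.325, and from 0.245 to 0.723 over all settings). Tlr4 itself, under the filter, averaged 0.296 ± 0.0646 FPKM in WT and 0.224 ± 0.0736 FPKM in HO.

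Resident markers were then set against the other genes within each library, which takes out a shift common to a library's genes. The mean log2(FPKM + 0.5) of the 5 resident markers exceeded that of the 20 measured genes outside the resident and class II groups by 1.41, 0.94 and 0.69 in WT and by 0.70, 0.58 and 0.94 in HO. The group means of this difference were 1.01 ± 0.36 and 0.74 ± 0.19 (SD, n = 3 each) and the groups overlapped. Marco, with its 10.4-fold range, weighed on this value. Without Marco the difference was 1.41, 1.26 and 1.13 in WT and 0.91, 0.99 and 1.08 in HO, and the groups did not overlap, with means of 1.27 ± 0.14 and 0.99 ± 0.08. Leaving out Marco was chosen after its values were seen, and no test was made of a value over chosen genes.

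For class II against the same 20 genes the difference was 1.76, 2.17 and 1.82 in WT and 2.21, 1.81 and 1.49 in HO, with means of 1.92 ± 0.22 and 1.84 ± 0.36. The groups overlapped, and the HO libraries spread over most of the range. On the mean log2 scale resident markers stood below class II in every library. Their mean minus that of class II was -0.36, -1.23 and -1.13 in WT and -1.51, -1.23 and -0.55 in HO on the log2 scale. In summed FPKM, where Cd5l and Clec4f weigh most, the 5 resident markers exceeded the 4 class II genes in WT replicate 1 (110.9 against 88.4) and HO replicate 3 (67.0 against 62.7). On the log2 scale the gap was narrowest in WT replicate 1 and widest in HO replicate 1.

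**Figure D3:**
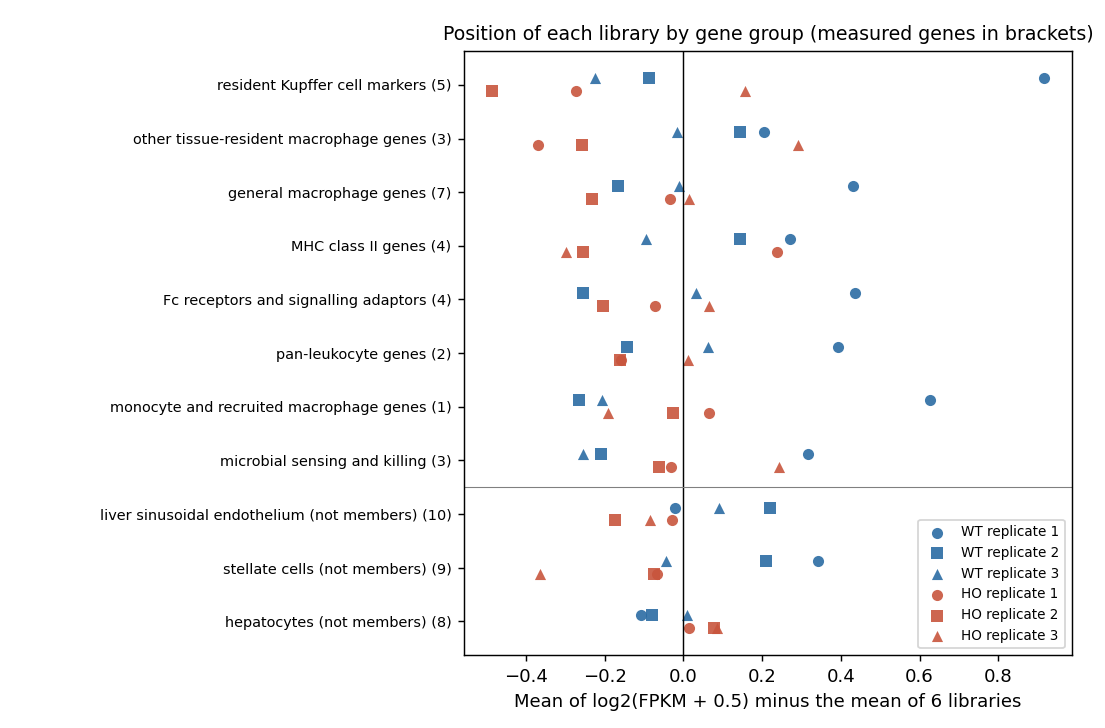
Mean deviation of each library from the mean of the 6 libraries, on the log2(FPKM + 0.5) scale, for the measured genes of each role (number in brackets) and, under the line, for markers of other liver cells. WT replicate 1 (blue circle) lies to the right of every other library for the resident markers and for the general macrophage, Fc receptor and pan-leukocyte genes, and HO replicate 1 (red circle) lies close to it for the MHC class II genes.

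The libraries were then ranked gene by gene. WT replicate 1 held the highest WT value in 26 of the 29 genes (89.7%) and the highest of all 6 in 20 (69.0%), against 32.4% and 22.7% of all genes tested. It exceeded the mean of the other 2 WT libraries by a median of 0.47 over the 29 genes and by -0.00 over all genes. Cd163, Msr1 and Cd74 were the 3 exceptions. The opposite end of WT was mostly replicate 2, the lowest in 18 of the 29 (62.1%, against 31.7% of all genes tested). In HO replicate 3 was the highest in 19 (65.5%, against 32.7%) and replicate 2 the lowest in 16 (55.2%, against 36.4%).

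Without WT replicate 1 the median difference of the 29 genes was -0.08 instead of -0.21, 18 were lower in HO, and 14 of the 29 lay below the median of all genes, which stayed at -0.09. The median of the resident markers was then -0.16, that of class II -0.17 and that of the other 20 genes -0.02. Leaving out each library in turn gave medians of the resident markers from -0.61 to -0.16, of class II from -0.40 to -0.10 and of the other 20 genes from -0.28 to -0.02. The resident median was -0.61 without WT replicate 2 or HO replicate 3 and -0.59 without WT replicate 3. None of the 29 genes passed in any of these fits. With both WT replicate 1 left out and median-of-ratios scaling, a setting chosen after the data were seen, 13 of the 29 were lower in HO and the median was 0.02.

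**Figure D4:**
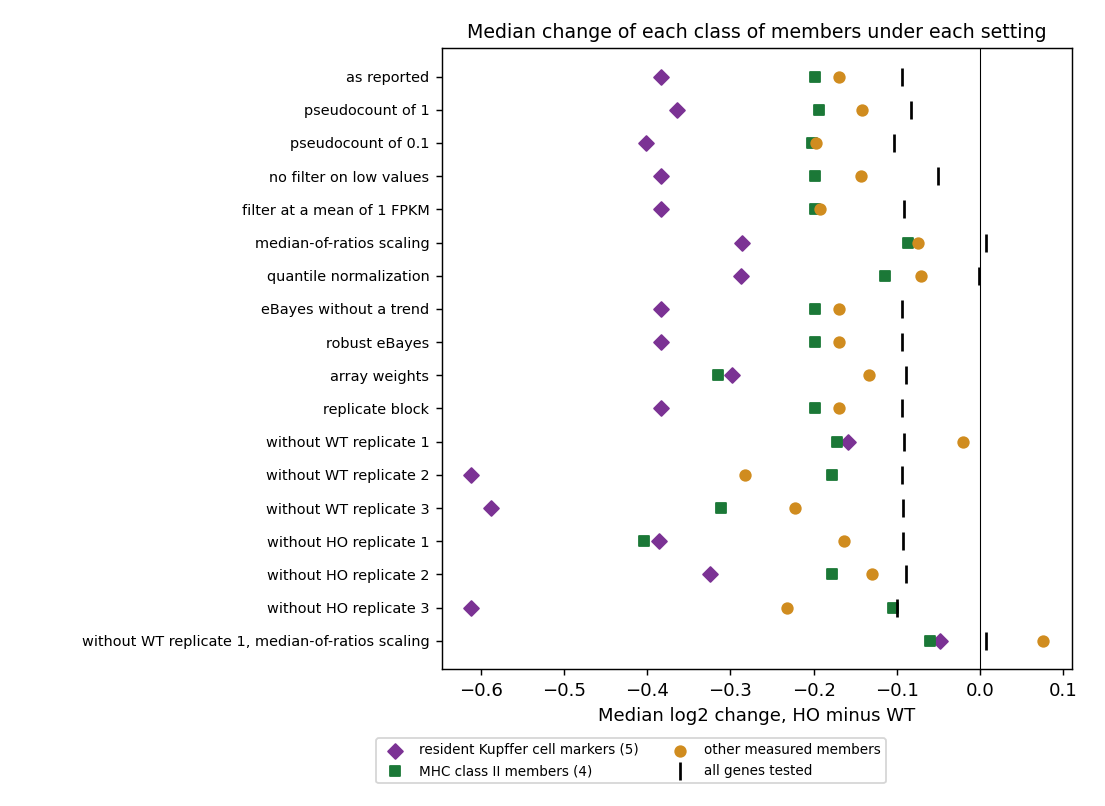
Median log2 difference, HO minus WT, of the 5 resident markers (purple), the 4 MHC class II genes (green) and the other measured genes (orange) under each setting, with the median of all genes tested as a black bar. The resident median lies at -0.38 as reported and at -0.16 without WT replicate 1, and the other genes pass to the right of the black bar when that library is left out.

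Markers of other cells were read in the same libraries, and their part in the differences above was not tested. Of 7 monocyte markers 1 reached the filter (Plac8, with 5.89 ± 0.0475 FPKM in WT, 5.24 ± 1.88 FPKM in HO and a limma adjusted p of 0.638), and S100a4 was not analysed here. The summed level of the 6 monocyte markers in the table was 6.35 to 6.72 FPKM in WT and 3.71 to 8.37 FPKM in HO. Of 10 neutrophil markers 3 reached the filter, Ly6g and Camp were at 0 in all 6 libraries, and the sums were 1.98 to 5.08 FPKM in WT and 3.45 to 8.61 FPKM in HO. S100a9, a calcium-binding protein of neutrophils, was at 0.893, 0.491 and 1.75 FPKM in WT and at 2.45, 3.28 and 3.75 FPKM in HO (log2 difference 1.31 ± 0.30, limma adjusted p = 0.0828). The remaining measured markers did not share a difference of that size. S100a8 was at 0.840, 0.691 and 1.76 FPKM in WT and at 0, 2.05 and 3.11 FPKM in HO. Its log2 difference was 0.12 ± 0.70 (limma adjusted p = 0.943), and that of Csf3r was -0.07 ± 0.14 (limma adjusted p = 0.798).

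Of 9 dendritic cell markers 3 reached the filter, with sums of 2.35 to 4.63 FPKM in WT and 2.99 to 3.14 FPKM in HO. Their smallest p was that of Batf3, a factor of cross-presenting dendritic cells (log2 difference -0.52 ± 0.26, limma adjusted p = 0.295), and the highest mean that of Zbtb46, at 1.09 ± 0.286 FPKM in WT and 1.37 ± 0.123 FPKM in HO. Of 8 B and plasma cell markers, led by Igkc, 3 reached it, with sums of 11.01 to 33.3 FPKM in WT and 11.8 to 17.7 FPKM in HO. The highest of these was WT replicate 3, where Igkc and Ighm made up most of the sum, at 23.4 and 6.76 FPKM. Of the B and plasma cell markers the smallest p was that of Jchain (limma adjusted p = 0.783). Of 10 T and NK cell markers 1 reached the filter (Nkg7, limma adjusted p = 0.765), with sums of 1.67 to 2.96 FPKM in WT and 1.997 to 2.72 FPKM in HO.

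For the lining and stellate cells that share the sinusoid with Kupffer cells, all listed markers reached the filter. The 10 markers of sinusoidal endothelium were led by Clec4g, at 23.8 ± 3.40 FPKM in WT and 21.1 ± 4.37 FPKM in HO. They summed to 61.1 to 75.0 FPKM in WT and to 57.4 to 60.7 FPKM in HO. These unscaled sums did not overlap, by a narrow margin between WT replicate 1 and HO replicate 3. Dividing by the size factors of median-of-ratios scaling (1.05 and 0.979) reversed the order of those libraries. Of the 10, 9 had a lower fitted mean in HO (8 under quantile normalization, 7 under median-of-ratios scaling), with a median log2 difference of -0.16, and none passed. WT replicate 1 had the highest WT value in 2 of the 10 and the lowest in 6, unlike in the macrophage genes. The smallest p was that of Ptprb, an endothelial phosphatase (log2 difference -1.04 ± 0.24, limma adjusted p = 0.0828). Ptprb passed without HO replicate 1, at -1.32 ± 0.15 (limma adjusted p = 0.0335), and with array weights, at -1.20 ± 0.20 (limma adjusted p = 0.0297), with adjusted p from 0.0297 to 0.319 over all settings. The 9 stellate cell markers, led by Dcn, summed to 139.6 to 181.6 FPKM in WT and to 107.1 to 123.4 FPKM in HO, and these sums did not overlap either. Of the 9, 8 had a lower fitted mean in HO (7 with median-of-ratios scaling or without WT replicate 1), none passed, and the median log2 difference was -0.41 beside -0.38 for the resident markers. WT replicate 1 was the highest WT library in 6 of the 9, and Dcn had a log2 difference of -0.49 ± 0.11 (limma adjusted p = 0.0813). Of 8 hepatocyte markers, led by Alb, 4 were lower and 4 higher in HO (2 and 6 with median-of-ratios scaling). Their median log2 difference was 0.10. Their unscaled sums, in which Alb weighs most, were 46566.5 to 49193.6 FPKM in WT and 41362.3 to 45404.6 FPKM in HO, without overlap. Dividing by the size factors (1.05 for WT replicate 1 and 0.957 for HO replicate 2) put HO replicate 2 above WT replicate 1. The scaled sums of the groups thus overlapped. Cps1 rose (log2 difference 0.86 ± 0.13, limma adjusted p = 0.0422), 1 of the 8 beside 1.14% of all genes tested. Ttr was lower, at -0.54 ± 0.11 (limma adjusted p = 0.0737), and passed under quantile normalization. Leaving out HO replicate 3 (difference 0.74), HO replicate 2 (0.89), WT replicate 2 (0.86) or WT replicate 1 (0.79) ended the call of Cps1 (limma adjusted p from 0.0850 to 0.164, and from 0.0189 to 0.164 over all settings). With all 6 libraries that call also ended with no trend in eBayes, no filter or a replicate block (limma adjusted p = 0.0674, 0.0867 and 0.0571). WT replicate 1 was the highest WT library in 1 of the 8.

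Other genes of macrophage biology were read from 6 wider lists, 61 of whose 79 genes were measured, and none of the 61 passed (1.14% of all genes did). Their median log2 difference was -0.18, and WT replicate 1 was the highest WT library in 41 of the 61. Of 15 further Kupffer cell genes, all measured, 13 were lower in HO (12 with median-of-ratios scaling, 9 without WT replicate 1), with a median of -0.26. The smallest p was that of Clec4n, the fungal receptor dectin-2, at 1.32, 1.62 and 1.46 FPKM in WT and at 0.605, 0.887 and 0.819 FPKM in HO (log2 difference -0.63 ± 0.15, limma adjusted p = 0.0883). Its groups stood apart, and WT replicate 1 was here the lowest of WT. The groups did not overlap for 1 of the 15 genes (6.67%), against 27.9% of all genes tested. The highest mean was that of Slc40a1, the iron exporter ferroportin, at 33.8 ± 7.37 FPKM in WT and 24.2 ± 4.29 FPKM in HO (SD, n = 3 each, log2 difference -0.47 ± 0.19, limma adjusted p = 0.216).

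Of 13 macrophage growth factors and transcription factors 10 were measured, 5 lower and 5 higher in HO (3 and 7 with median-of-ratios scaling). The smallest p was that of Maf, a factor of resident macrophages that other liver cells also express, at 11.5, 11.4 and 8.34 FPKM in WT and at 6.73, 6.86 and 7.66 FPKM in HO (log2 difference -0.52 ± 0.14, limma adjusted p = 0.112). Nr1h3, which encodes liver X receptor alpha and is also made by hepatocytes, had the highest mean, at 42.3 ± 4.86 FPKM in WT and 46.5 ± 1.76 FPKM in HO (log2 difference 0.14 ± 0.10, limma adjusted p = 0.467).

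Of 18 further phagocyte Fc receptor, integrin and oxidase genes 17 were measured, 12 of them lower in HO (9 under quantile normalization and 10 under median-of-ratios scaling), with a median of -0.24. Fcgr2b, the inhibitory Fc receptor that sinusoidal endothelium also carries, was at 13.5, 16.7 and 15.4 FPKM in WT and at 10.8, 11.6 and 10.4 FPKM in HO (log2 difference -0.45 ± 0.11, limma adjusted p = 0.0894). Its order within WT was unlike that of Fcgr1 and Fcgr3, with replicate 1 the lowest. Lcp1, the leukocyte actin-bundling protein L-plastin, had the highest mean of the list, at 20.4 ± 0.788 FPKM in WT and 22.1 ± 1.59 FPKM in HO (limma adjusted p = 0.514).

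Of 12 genes that accompany class II presentation 6 were measured, 5 lower in HO also with both scalings, with a median of -0.18. Ctsl, a lysosomal protease made by many cells, had both the smallest p and the highest mean, at 108.5, 119.8 and 110.1 FPKM in WT and at 138.1, 145.2 and 171.4 FPKM in HO (log2 difference 0.42 ± 0.10, limma adjusted p = 0.0912). Of 13 microbial sensors 7 were measured, 3 lower and 4 higher in HO (2 and 5 with either scaling). Lbp, the lipopolysaccharide-binding protein that hepatocytes secrete, led on both counts, at 40.3, 37.0 and 43.9 FPKM in WT and at 52.3, 106.7 and 70.7 FPKM in HO (log2 difference 0.86 ± 0.24, limma adjusted p = 0.111). HO replicate 1 was the lowest HO library for Lbp as it was for Cd14.

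Of 8 genes of lipid-associated macrophages 6 were measured, while Trem2 and Gpnmb, the most specific of the list, were under the filter. All 6 measured genes (Cd9, Cd63, Spp1, Lpl, Ctsd and Ctsb), which other liver cells also express, were lower in HO, also with both scalings and without WT replicate 1, with a median of -0.35. Ctsb, a lysosomal protease made throughout the liver, was at 121.7, 113.2 and 113.7 FPKM in WT and at 93.8, 85.3 and 84.5 FPKM in HO (log2 difference -0.40 ± 0.08, limma adjusted p = 0.0703). The groups stood well apart, unlike those of most of the 29 macrophage genes. They did not overlap for 4 of the 6 genes (66.7%), against 27.9% of all genes tested. Ctsd, another lysosomal protease, was at 143.5 ± 5.23 FPKM in WT and 117.9 ± 3.83 FPKM in HO (SD, n = 3 each, log2 difference -0.28 ± 0.08, limma adjusted p = 0.102).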

How the data were processed

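Liver RNA was made into directional Illumina libraries after Trizol extraction, per the labels' protocols. Values in the deposited table are FPKM, computed by the authors for each gene. Per the submitters' processing notes, mm10 was the build and HISAT2, HTSeq, DESeq2 and StringTie were used, with no version or role stated. Each value column was matched to a library by group and replicate number. All 24034 identifiers were found in GENCODE mouse release 21, which gave the positions.

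The 6 libraries summed to 495570 to 518218 FPKM, and 11321 to 11667 genes reached 1 FPKM. The median over genes was 0.853 to 0.879 FPKM in WT and 0.742 to 0.788 in HO. Low values were whole multiples of the step of 1 read (tolerance 0.02 reads) in 25.5% to 29.6% of cases, so counts were not recovered. The steps gave 19100000 to 24600000 read equivalents.

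The 13250 genes averaging at least 0.5 FPKM were fitted as log2(FPKM + 0.5) with limma 3.58.1 in R 4.3.3, without a block, with a mean-variance trend in eBayes. Two-sided p-values were adjusted by Benjamini-Hochberg, with a threshold of 0.05. Fold changes on this scale understate those of low genes. The fit was tested on simulated data. Alternatives were pseudocounts of 1 and 0.1, no filter, a filter at 1 FPKM, quantile normalization, median-of-ratios scaling, robust eBayes, eBayes with no trend, array weights (statmod 1.5.0), a replicate block and leaving out each library. Genes given with all libraries are the resident and class II genes and, of each other role, the 2 with the smallest p, with others where a result turned on them, chosen after their values were seen. Of each further list the smallest p and the highest mean are named. The 33 genes, the lists and the tests were chosen with earlier results of these data known. Promoters came from RefSeq (GRCm38.p6). Python 3.11.15, pandas 2.3.3, numpy 2.4.6 and matplotlib 3.10.9 handled tables and figures.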

Additional observations from a re-analysis of the deposited data

How the results depend on the processing

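None of the 29 measured genes passed under the 16 planned settings or the 1 added after seeing the data, and 460 of 491 pairs of gene and setting kept their sign. The remaining 31 turned sign, in 14 genes, and the cause was not tested. With median-of-ratios scaling Lyz2 was at 0.022 and Fcgr1 at 0.065 (log2, HO minus WT), with quantile normalization Lyz2 was at 0.00086 and Fcgr1 at 0.11, and with array weights Fcgr1 was at 0.069. Leaving out each library in turn gave -0.96 to 0.47 for Marco, -0.38 to 0.068 for Adgre1, -0.35 to 0.27 for Lyz2, -0.41 to 0.066 for H2-Eb1, -0.13 to 0.11 for Fcgr1, -0.37 to 0.16 for Fcer1g, -0.26 to 0.18 for Lgals3, -0.019 to 0.35 for Spic and -0.35 to 0.13 for Msr1. With WT replicate 1 left out and median-of-ratios scaling together, the median of the 29 genes was 0.020 and that of the other 20 genes 0.076, and Timd4 was at 0.046, Marco 0.57, Adgre1 0.16, Lyz2 0.38, Ctss 0.0049, H2-Eb1 0.17, Fcgr1 0.18, Fcgr3 0.020, Fcer1g 0.27, Tyrobp 0.083, Ptprc 0.069 and Lgals3 0.28.

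Same-numbered libraries deviated from their group means with correlations of 0.0661, -0.0282 and 0.0147, so the numbers were not taken to pair them. With a replicate block 0 of the 29 genes passed, the smallest adjusted p was 0.141 (limma, Cd68) and 25 genes passed over the whole table instead of 151. That number was 6 to 262 when 1 library was left out, 941 with array weights, 77 without a trend, 100 with a pseudocount of 0.1, 40 with no filter and 3 under the added setting. Of the genes that passed, 43 rose and 108 fell, against 70 and 64 with median-of-ratios scaling and 56 and 72 with quantile normalization. With 3 libraries a group, the 95% interval of a gene's log2 difference was 1.06 wide at the median of the 29 and 0.713 over all genes tested.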
